A study of Mus musculus with 18 samples.

Results

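The genes described here are 42 genes of mitosis and of the mitotic spindle, followed through the early thymocyte stages of adult and fetal mice. They were taken by symbol, and the list was chosen with earlier results of these data known. It holds the cyclins and regulators of Cdk1, the spindle checkpoint, the anaphase-promoting complex and securin, mitotic kinases and centromere proteins. It also holds kinesins, spindle assembly and cytokinesis factors, topoisomerase, condensin and Ki-67. Of the 42 genes, 41 had a probe set of their own among the 12393 genes measured by the 22626 probe sets of the array. The 41 were covered by 74 probe sets. *Ccnb1*, encoding cyclin B1, had no probe set in the annotation used and was not analysed here. The study asked how the programme of T cell development differs between the adult and the fetal thymus.

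Messenger RNA was measured on Affymetrix Mouse Genome 430A 2.0 arrays in 6 sorted populations of C57BL/6 thymocytes, on 3 arrays for each population and 18 in total. The adult groups were early thymic progenitors (ETP, lineage negative CD44+CD25-c-kit+), DN2 cells (CD44+CD25+) and DN3 cells (CD44-CD25+) of female mice aged 4 to 6 weeks. The fetal groups were ETP, DN2 and DN3 cells sorted by the same antigens from fetal thymi, whose age is E14.5 in the labels and a day later in the published methods. No treatment and no engineered allele is named for any group. Each RNA came from 80000 cells, pooled from 4 sorts in adult and 2 sorts in fetal cells. The labels call the arrays of a group biological replicates and the methods call them technical, so that a p-value here covers array-to-array spread, which may be technical in part or whole.

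Cell division depends on these genes in a set order. Cyclin A and cyclin B with Cdk1 drive entry into mitosis, Plk1 and the aurora kinases build the spindle with the kinesins, the Bub and Mad proteins hold back the anaphase-promoting complex until each kinetochore is attached, and the complex with Cdc20 then destroys securin and the cyclins. Most of the transcripts rise in G2 and fall after division, so that their amount in a population depends in part on the share of cells in these phases. The paper measured the share of cells in S, G2 and M phase by DNA content. It was highest in DN2 and lowest in DN3 at both ages, and higher in fetal than in adult ETP. That share also counts S phase and is not a measure of RNA. The median of the mitotic transcripts below was lowest in adult ETP, at -0.97, -1.43 and -0.95. In adult DN3 it was -0.60, 0.034 and 0.355, and replicates 2 and 3 there are among the arrays that stood apart (below). How far the transcripts follow the share of dividing cells was not tested. Early thymocytes expand strongly before the T cell receptor beta chain is rearranged, and the DN2 stage is known as a dividing stage in the adult thymus.

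All values are log2 expression, relative to the median of the 18 arrays for the same probe set, so that 0 is this median and a difference of 1 is 2.00-fold. They hold no level, and levels of different genes cannot be compared. A gene was called in a comparison when limma gave an adjusted p (Benjamini-Hochberg over 22626 probe sets) under 0.05 and a difference of at least 1.8-fold. In bulk samples fewer dividing cells and less RNA per dividing cell cannot be told apart.

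Some arrays stood apart. *Cd44*, whose protein the sort used, lay at 1.72 to 2.34 in adult and fetal ETP, and the pre-T cell receptor gene *Ptcra* at 4.58 to 4.98 in fetal DN3. In adult DN3, however, *Cd44* was -7.97, -7.84 and -0.86 and *Cd34* was -7.19, -7.58 and -0.90. In adult DN2 *Cd44* was -0.97, -0.030 and 0.44 and *Cd34* was -1.06, -0.045 and 0.045. Replicate 3 of adult DN3 thus held DN2-like values of *Cd44* and *Cd34*. Genes that rise towards DN3 did not all follow. *Ptcra* was 4.63, 4.05 and 3.19 in adult DN3, against -0.34, -0.39 and -1.85 in adult DN2. The transcription factor gene *Lef1* was 5.1, 4.6 and 4.0, against -1.5, -2.8 and -3.2. The T cell receptor subunit *Cd3e* was 2.17, 1.73 and 0.65, against 0.43, 0.14 and -0.93, so that replicate 3 lay between. *Xist*, transcribed from the inactive X chromosome of females, was 1.59, -11.29 and -11.34 in adult DN3, against -1.45 to 1.41 in the other adult arrays, so that replicates 2 and 3 went against the female label. The Y-linked *Uty* was -0.82, 1.59 and 1.61 in the same arrays, and the Y-linked *Eif2s3y* and *Kdm5d* were -0.013, 1.29 and 1.15 and -0.48, 1.22 and 1.10. In adult ETP replicate 3, *Eif2s3y* and *Kdm5d* were level with adult DN3 replicates 2 and 3, at 1.09 and 1.11, while its *Xist* was 0.13 and its *Uty* -0.12. Adult ETP replicate 1 (0.84 and 0.45) and adult DN2 replicate 2 (0.50 and 0.76) also lay above all fetal arrays for *Eif2s3y* and *Kdm5d*. Their *Uty* was -0.51 and 0.049 and their *Xist* 0.76 and -1.45. The embryonic globin *Hbb-y* was at -0.10 to 0.0040 in the adult arrays and in fetal ETP, DN2 and DN3 at 0.037, 3.96 and 4.58, at 0.014, 4.53 and 2.85 and at -0.074, 5.97 and 2.35. Other erythroid genes did not all follow *Hbb-y*. *Alas2* did so in fetal DN3 (-0.043, 3.77 and 6.40) but was 0.032, 0.013 and 4.115 in fetal ETP. *Hba-x* and *Hba-a1* lay at -0.091 to 0.045 in the fetal arrays. *Gata1* was high in all fetal DN3 arrays, replicate 1 included (5.23, 4.75 and 4.13). The counts and medians for adult DN3 are therefore also given without these arrays, and the comparisons of adult with fetal cells also without fetal replicates 2 and 3.

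Over the 6 groups, 21 of the 41 mitotic genes passed the moderated F test with a largest difference between group means of at least 1.8-fold, while 19.7% of all 12393 genes did. The median of the largest difference was 1.56 log2 for the mitotic genes and 0.60 log2 for all genes. The lowest of the 6 group means was that of adult ETP for 35 of the 41 genes, including all 21 that passed. The highest mean lay in adult DN2 for 20 genes, in fetal DN2 for 10, in fetal DN3 for 6, in fetal ETP for 3 and in adult DN3 for 2. Without adult ETP replicate 2 the count was 9, and without adult ETP replicate 3 it was 12. In these and all later fits with other arrays or settings, the share of all genes called was not counted.

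The median over the 41 genes was -0.97, -1.43 and -0.95 in the arrays of adult ETP, 0.30, 0.11 and 0.39 in adult DN2, and -0.60, 0.034 and 0.35 in adult DN3. In the fetal arrays it was -0.0046, -0.11 and -0.22 in ETP, 0.31, -0.09 and 0.20 in DN2, and 0.28, 0.076 and -0.093 in DN3. All adult ETP arrays lay below every other array. Adult DN3 replicate 1 was the lowest of the remaining arrays, and replicate 3, with its DN2-like *Cd44* and *Cd34*, was within the range of adult DN2.

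**Figure D1:**
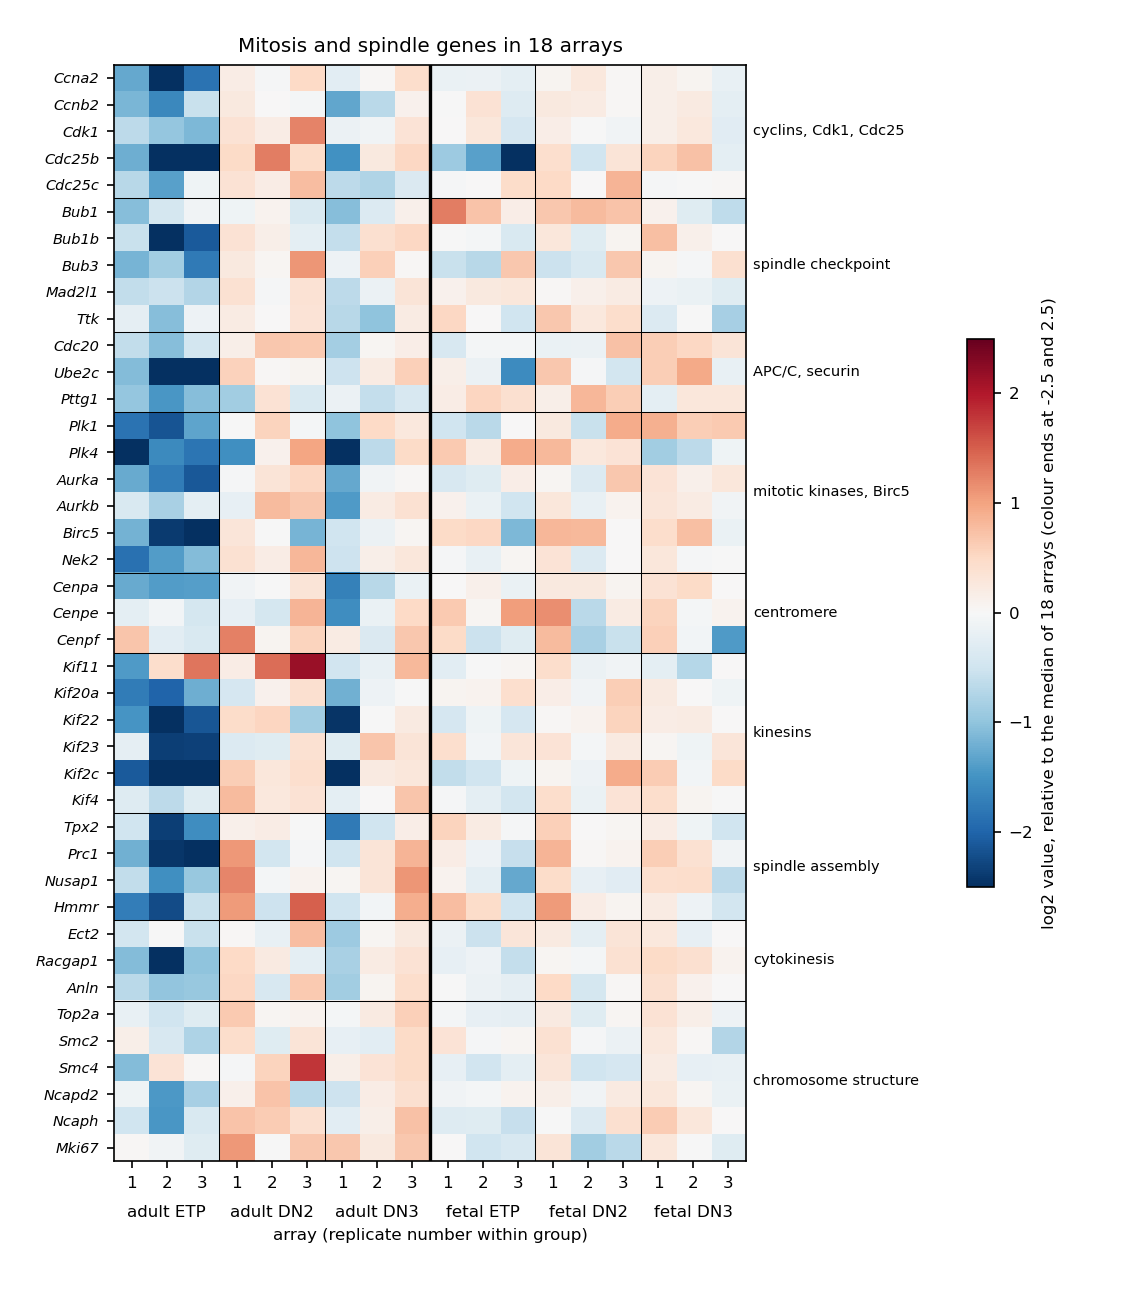
Log2 value of each of the 41 mitotic genes (rows, by role) in the 18 arrays (columns, adult groups left of fetal groups), relative to the median of 18 arrays for that gene, with colours ending at -2.5 and 2.5. The 3 adult ETP columns are blue for most genes, and so is adult DN3 replicate 1 for part of them.

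The promoters of these genes are shown because transcripts that peak in G2 and M phase are known to share 2 short elements, the cell cycle homology region with the core TTTGAA and the CCAAT box. Promoters of RefSeq genes on GRCm38.p6, 250 bases before to 50 bases after the start, were at hand for 35 of the 41 genes, all but *Ccna2*, *Cdc25c*, *Aurkb*, *Kif20a*, *Tpx2* and *Smc4*. TTTGAA on either strand occurred in 25 of the 35 (71.4%), against 18.1% of 27025 promoters of the same length. CCAAT on either strand occurred in 27 (77.1%), against 37.9% of all, and both occurred in 23 (65.7%), against 7.12% of all. The stretches below, in capitals where these letters match on the printed strand or its complement (TTCAAA and ATTGG), belong to genes described in the next paragraphs, 5′ to 3′ on the strand of the gene.
Ccnb2: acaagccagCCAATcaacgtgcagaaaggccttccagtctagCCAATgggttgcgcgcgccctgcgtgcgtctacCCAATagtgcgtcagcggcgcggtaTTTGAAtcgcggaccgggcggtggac
Cdk1: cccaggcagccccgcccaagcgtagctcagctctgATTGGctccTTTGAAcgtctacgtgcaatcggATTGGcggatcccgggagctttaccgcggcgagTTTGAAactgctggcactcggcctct
Plk1: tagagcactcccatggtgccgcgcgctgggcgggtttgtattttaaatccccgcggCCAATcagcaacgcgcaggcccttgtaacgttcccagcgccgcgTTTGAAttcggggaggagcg
Aurka: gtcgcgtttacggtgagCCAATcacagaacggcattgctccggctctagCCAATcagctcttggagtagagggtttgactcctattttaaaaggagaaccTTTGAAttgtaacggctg
Prc1: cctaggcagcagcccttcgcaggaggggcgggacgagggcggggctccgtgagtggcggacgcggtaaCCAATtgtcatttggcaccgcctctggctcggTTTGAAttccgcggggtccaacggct
They lie at chr9:70421525-70421650, minus strand for *Ccnb2*, at chr10:69352902-69353027, minus strand for *Cdk1*, at chr7:122159365-122159484, plus strand for *Plk1*, at chr2:172370521-172370638, minus strand for *Aurka* and at chr7:80294346-80294471, plus strand for *Prc1*. In each, TTTGAA lies downstream of 1 or more CCAAT matches, and in *Cdk1* a further TTTGAA stands between them. A match is a run of letters and not a shown binding site, and neither motif holds the other. Among genes lower in adult than in fetal ETP, 8 of 12 promoters held TTTGAA, and among the others 17 of 23. Among genes higher in adult DN2 than in adult ETP, 14 of 18 held it, and among the others 11 of 17.

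The first comparison was that of adult with fetal ETP. Of the 41 genes, 15 were lower and 0 higher in adult ETP, while 6.16% of all genes were called lower. The median difference, adult minus fetal, was -1.07 log2 against -0.072 for all genes, and 37 of the 41 differences were negative, with a range of -3.17 to 0.19 log2. Over the 74 probe sets 19 were lower and 1 was higher. At an unadjusted p under 0.05, 25 of the genes were lower and 0 higher, while 34.7% of all genes passed that limit in either direction. The count fell to 7 without adult ETP replicate 2, 9 without adult ETP replicate 3, 7 without fetal ETP replicate 1 and 7 without fetal ETP replicate 2. On the 6 arrays of ETP alone, 4 genes were called (*Pttg1*, *Nek2*, *Cenpa* and *Kif20a*). *Ccna2*, *Cenpa*, *Kif20a*, *Nek2* and *Pttg1* stayed called whichever array of ETP was left out, and the other 10 lost the call at least once. Without fetal replicates 2 and 3, which leaves 1 fetal array per group and assumes that it varies like the others, 0 were called and the median was -1.12, with 40 of 41 differences negative.

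The step from ETP to DN2 in adult cells came next. Of the 41 genes, 21 were higher and 0 lower in adult DN2 than in adult ETP, while 3.86% of all genes were called higher. All 41 differences were positive, from 0.32 to 4.01 log2, with a median of 1.43 against 0.014 for all genes. At an unadjusted p under 0.05, 34 genes were higher, while 20.8% of all genes passed in either direction. Over the probe sets 31 of 74 were higher and 0 lower. The count was 13 without adult ETP replicate 2 and 14 to 21 without any other single array of these groups. On the 6 arrays alone 3 genes were called (*Aurka*, *Nek2* and *Cenpa*), and with array weights 13. *Aurka*, *Ccna2*, *Cdc25b*, *Cdk1*, *Cenpa*, *Kif20a*, *Ncaph*, *Nek2*, *Plk1* and *Prc1* stayed called without any single array.

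The 2 comparisons share the adult ETP arrays, so that a low value there moves both. In adult DN3 against adult ETP, 15 of the 41 genes were higher and 0 lower, while 6.8% of all genes were called higher, and the median difference was 0.81 log2, with 38 positive. This count rested on single arrays. It was 18 without adult DN3 replicate 1, 4 without replicate 2 and 4 without replicate 3, the array with DN2-like *Cd44* and *Cd34*. It was 5 without adult ETP replicate 2 and 8 without adult ETP replicate 3. *Ccna2*, *Nek2* and *Prc1* stayed called in each case, and each of the other 12 lost its call without at least 1 of these arrays. Without both adult DN3 replicates 2 and 3, which leaves 1 array of adult DN3 and assumes that it varies like the others, 1 gene was called, *Ccna2* (1.61 log2, adjusted p = 0.0117), and the median was 0.28 with 26 positive. On the 6 arrays alone 0 were called. Among the 15 were *Bub1b* (1.87 ± 0.44 log2, adjusted p = 0.0127), *Bub3* (1.43 ± 0.42 log2, adjusted p = 0.0396), *Cdc25b* (2.26 ± 0.64 log2, adjusted p = 0.0327), *Kif20a* (1.21 ± 0.31 log2, adjusted p = 0.0212) and *Plk1* (1.69 ± 0.41 log2, adjusted p = 0.0152), and the others are given by role.

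**Figure D2:**
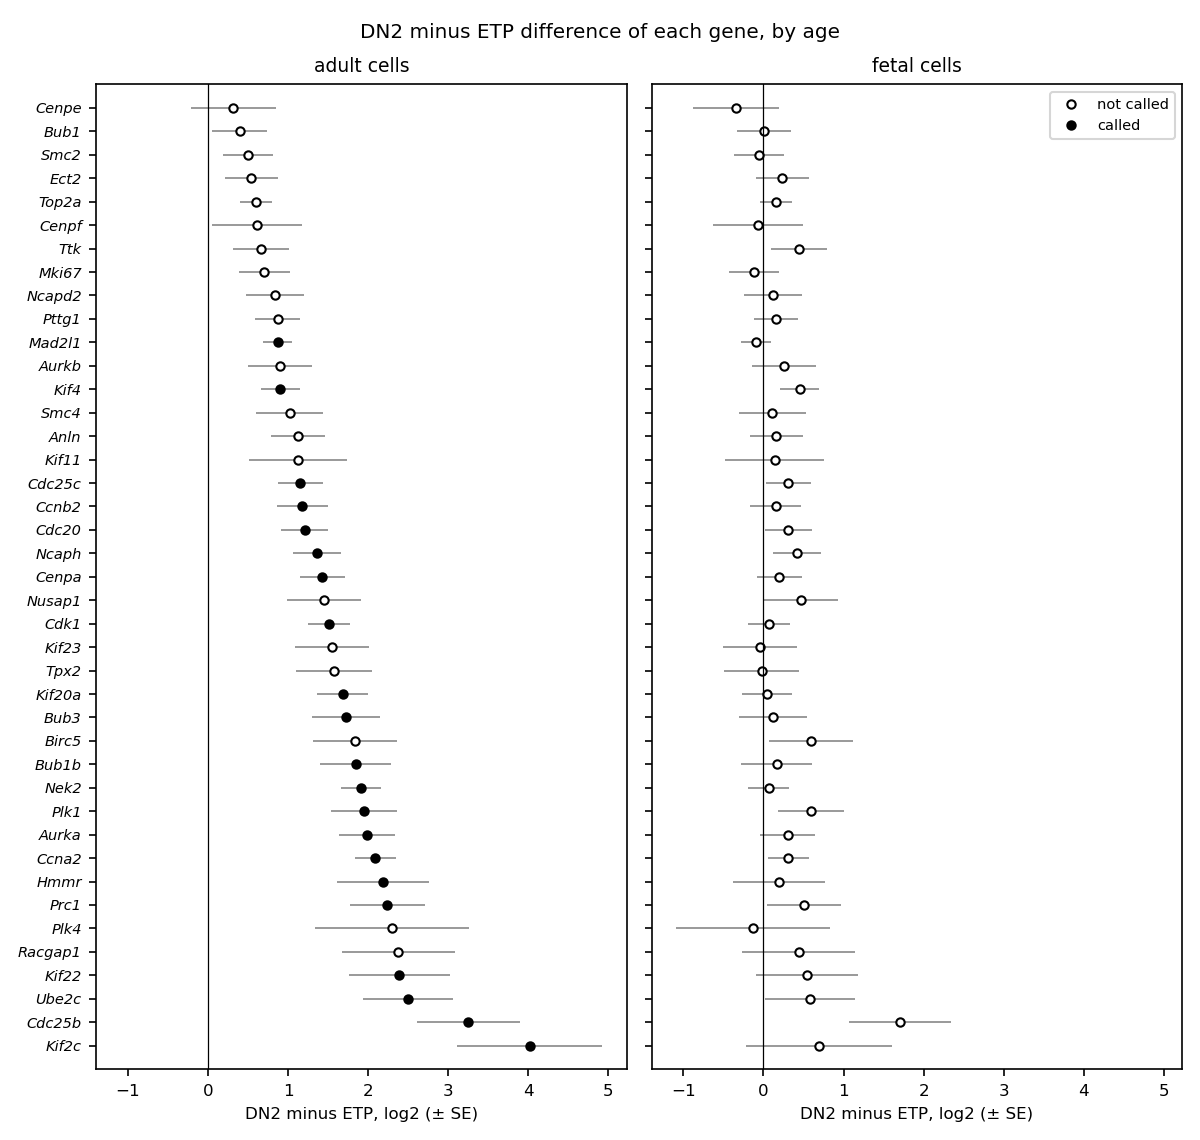
DN2 minus ETP difference in log2 of each of the 41 mitotic genes (points, ± SE of the fit over 18 arrays), in adult cells (left) and fetal cells (right), ordered by the adult difference. Filled points were called. All adult points lie right of 0, and the fetal points lie around it with a median of 0.17.

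Of the 5 measured cyclins and regulators of Cdk1, 2 were lower in adult than in fetal ETP, and all 5 were higher in adult DN2 and 3 in adult DN3 than in adult ETP. *Ccna2*, cyclin A2 of S and G2 phase, was -1.27, -2.49 and -1.85 in adult ETP, against -0.17, -0.15 and -0.25 in fetal ETP, and the arrays did not overlap. It was 0.18, -0.021 and 0.50 in adult DN2 and -0.26, 0.034 and 0.44 in adult DN3, and -0.19 to 0.26 in fetal DN2 and DN3. The difference between adult and fetal ETP was -1.68 ± 0.25 log2 (adjusted p = 0.000868), that between adult DN2 and ETP 2.09 ± 0.25 log2 (adjusted p = 0.000165) and that between adult DN3 and ETP 1.94 ± 0.25 log2 (adjusted p = 0.000171). No array of adult ETP overlapped with any other group. *Ccnb2*, cyclin B2, was -1.13, -1.62 and -0.56 in adult ETP, against -0.014, 0.35 and -0.33 in fetal ETP, and 0.24, 0.014 and -0.041 in adult DN2. The difference between adult and fetal ETP was -1.11 ± 0.32 log2 (adjusted p = 0.0417), and that between adult DN2 and ETP was 1.17 ± 0.32 log2 (adjusted p = 0.041). In adult DN3 it was -1.30, -0.67 and 0.099, where replicate 1 was as low as adult ETP. *Cdk1*, the kinase that the cyclins switch on, was -0.65, -0.97 and -1.12 in adult ETP, against 0.00020, 0.29 and -0.42 in fetal ETP, a difference of -0.87 ± 0.27 log2 (adjusted p = 0.0519) that was not called. In adult DN2 it was 0.36, 0.18 and 1.25, 1.51 ± 0.27 log2 above adult ETP (adjusted p = 0.0031). In adult DN3 it was -0.15, -0.088 and 0.34, 0.95 ± 0.27 log2 above adult ETP (adjusted p = 0.0308).

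*Cdc25b* and *Cdc25c* encode the phosphatases that activate Cdk1. *Cdc25b* was -1.23, -3.34 and -2.99 in adult ETP, against -0.91, -1.37 and -2.59 in fetal ETP, so that the groups overlapped and the difference was not called (-0.89 ± 0.64 log2, adjusted p = 0.281). It was 0.48, 1.27 and 0.45 in adult DN2, 3.25 ± 0.64 log2 above adult ETP (adjusted p = 0.00664). It also had the widest fetal difference of the 41 genes at this step, at 0.42, -0.50 and 0.31 in fetal DN2, 1.70 ± 0.64 log2 above fetal ETP and not called (adjusted p = 0.584). *Cdc25c* was higher in adult DN2 than in adult ETP by 1.15 ± 0.28 log2 (adjusted p = 0.0244) and 0.13 log2 from it in adult DN3, where it was not called.

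The spindle checkpoint genes were less even. *Bub1b*, whose product BubR1 binds and inhibits the anaphase-promoting complex, was -0.56, -2.62 and -2.10 in adult ETP, against -0.0046, -0.057 and -0.38 in fetal ETP (-1.61 ± 0.44 log2, adjusted p = 0.0336). It was 0.35, 0.14 and -0.24 in adult DN2, higher than in adult ETP by 1.84 ± 0.44 log2 (adjusted p = 0.0218). Its adult ETP replicate 1 lay within -0.60 to 0.53 of adult DN3. *Bub1*, a kinase of the kinetochore, was -1.07, -0.43 and -0.089 in adult ETP, against 1.28, 0.72 and 0.16 in fetal ETP (-1.25 ± 0.34 log2, adjusted p = 0.0316). In fetal cells it was 0.68, 0.79 and 0.71 in DN2 and 0.11, -0.30 and -0.63 in DN3, without overlap. Its other probe set, and not this one, was also called higher in adult DN2 than in adult ETP (0.91 log2, adjusted p = 0.0251). *Bub3*, the partner of Bub1 and BubR1, was -1.15, -0.87 and -1.76 in adult ETP and -0.56, -0.69 and 0.68 in fetal ETP, which was not called. It was 0.24, 0.040 and 1.10 in adult DN2 (1.72 ± 0.42 log2 above adult ETP, adjusted p = 0.0238) on this probe set, while its 3 other probe sets were not called. *Mad2l1*, the Mad2 protein of the checkpoint, was -0.62, -0.54 and -0.74 in adult ETP, against 0.12, 0.24 and 0.28 in fetal ETP, a difference of -0.84 ± 0.18 log2 (adjusted p = 0.00995) that was 1.79-fold and so just under the fold limit. It was 0.39, -0.029 and 0.36 in adult DN2 and was called there against adult ETP (0.87 ± 0.18 log2, adjusted p = 0.0102). *Ttk*, the checkpoint kinase Mps1, was called in no comparison and lay at -1.06 to 0.52 in ETP of both ages.

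Of the anaphase genes, *Pttg1*, encoding securin, was -0.97, -1.46 and -1.06 in adult ETP, against 0.19, 0.54 and 0.39 in fetal ETP (-1.54 ± 0.28 log2, adjusted p = 0.00307). In adult DN2 it was -0.86, 0.37 and -0.38, and its difference from adult ETP was not called (0.87 ± 0.28 log2, adjusted p = 0.0824). The 2 other probe sets of *Pttg1* went the other way, higher in adult than in fetal ETP by 0.89 and 0.19 log2, and were not called. *Ube2c*, the ubiquitin-conjugating enzyme of the anaphase-promoting complex, was -1.08, -2.64 and -3.10 in adult ETP and 0.15, -0.15 and -1.58 in fetal ETP, where replicate 3 was low and the difference was not called (-1.75 ± 0.56 log2, adjusted p = 0.0635). In adult DN2 it was 0.58, 0.024 and 0.062 (2.5 ± 0.56 log2 above adult ETP, adjusted p = 0.0144), and in adult DN3 it was -0.51, 0.20 and 0.60 (2.37 ± 0.56 log2, adjusted p = 0.0123). *Cdc20*, the activator of the complex, was -0.62, -1.07 and -0.46 in adult ETP, -0.41, -0.055 and -0.044 in fetal ETP and 0.14, 0.67 and 0.65 in adult DN2, and only the step to adult DN2 was called among the 9 comparisons (1.21 ± 0.29 log2, adjusted p = 0.0226).

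The mitotic kinases gave 4 of the 15 calls between adult and fetal ETP. *Nek2*, a kinase of the centrosome, was -1.86, -1.40 and -1.08 in adult ETP, against -0.036, -0.18 and 0.044 in fetal ETP (-1.39 ± 0.25 log2, adjusted p = 0.00307). It was 0.39, 0.19 and 0.82 in adult DN2 (1.91 ± 0.25 log2 above adult ETP, adjusted p = 0.000327) and -0.52, 0.14 and 0.29 in adult DN3 (1.42 ± 0.25 log2, adjusted p = 0.00186). Here too adult ETP lay below every array of the other groups. *Aurka*, the aurora A kinase of the spindle poles, was -1.25, -1.75 and -2.11 in adult ETP, against -0.40, -0.30 and 0.18 in fetal ETP (-1.53 ± 0.35 log2, adjusted p = 0.0124). It was -0.020, 0.33 and 0.53 in adult DN2 (1.98 ± 0.35 log2 above adult ETP, adjusted p = 0.00302), and -1.28, -0.083 and 0.020 in adult DN3 (1.26 ± 0.35 log2 above adult ETP, adjusted p = 0.0287), where replicate 1 was as low as adult ETP. *Plk1*, the polo-like kinase, was -1.84, -2.16 and -1.32 in adult ETP, against -0.51, -0.67 and 0.00080 in fetal ETP (-1.38 ± 0.41 log2, adjusted p = 0.0482), and -0.00080, 0.56 and -0.052 in adult DN2 (1.94 ± 0.41 log2 above adult ETP, adjusted p = 0.0105). It was 0.89, 0.62 and 0.66 in fetal DN3 and -1.02, 0.50 and 0.26 in adult DN3.

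*Birc5*, encoding survivin of the chromosomal passenger complex, was -1.19, -2.39 and -2.79 in adult ETP, against 0.48, 0.51 and -1.12 in fetal ETP (-2.08 ± 0.52 log2, adjusted p = 0.0216). The groups did not overlap, but adult replicate 1 and fetal replicate 3 were almost level. In adult DN2 it was 0.30, -0.017 and -1.16 (1.83 ± 0.52 log2 above adult ETP, adjusted p = 0.0516, not called) and in adult DN3 -0.49, -0.15 and 0.042 (1.92 ± 0.52 log2, adjusted p = 0.0269). *Plk4*, the kinase of centriole duplication, was -3.92, -1.58 and -1.82 in adult ETP, against 0.65, 0.21 and 0.92 in fetal ETP, and its large difference of -3.04 ± 0.96 log2 (adjusted p = 0.0619) was not called. Another probe set of *Plk4* with a smaller spread was called lower in adult than in fetal ETP (-1.08 log2, adjusted p = 0.0336) and higher in adult DN2 than in adult ETP (1.23 log2, adjusted p = 0.0215). *Aurkb*, the aurora B kinase, was measured only by 2 probe sets marked as shared between transcripts and was called in no comparison (-0.29 ± 0.40 log2 between adult and fetal ETP, adjusted p = 0.588).

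Of the centromere genes only *Cenpa*, the centromeric histone H3 variant, was called. It was -1.27, -1.40 and -1.38 in adult ETP, against 0.012, 0.13 and -0.18 in fetal ETP (-1.34 ± 0.28 log2, adjusted p = 0.00762), with little spread in both groups. It was -0.088, -0.00050 and 0.33 in adult DN2 (1.43 ± 0.28 log2 above adult ETP, adjusted p = 0.00628). In adult DN3 it was -1.69, -0.70 and -0.17, against 0.36, 0.49 and 0.00050 in fetal DN3, a difference of -1.14 ± 0.28 log2 (adjusted p = 0.0446). *Cenpa* was the 1 gene of the 41 lower in adult than in fetal DN3, while 1.95% of all genes were called lower there. Without adult DN3 replicate 3 the difference was -1.48 (adjusted p = 0.00297), without adult DN3 replicate 1 it was -0.72 (adjusted p = 0.0619), without any of the 4 other arrays of DN3 its adjusted p was 0.061 to 0.179, and with the replicate block its adjusted p was 0.058. *Cenpe* and *Cenpf*, large proteins of the outer kinetochore, ranged over -0.43 to 1.04 and -0.54 to 0.70 in ETP of both ages, with no call.

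Of the kinesins *Kif2c*, which depolymerizes microtubules at the centromere, gave the widest difference of the 41 genes. It was -2.09, -4.43 and -4.21 in adult ETP, against -0.62, -0.50 and -0.098 in fetal ETP (-3.17 ± 0.91 log2, adjusted p = 0.0413, 9-fold). It was 0.62, 0.28 and 0.42 in adult DN2, 16.2-fold above adult ETP (4.01 ± 0.91 log2, adjusted p = 0.0154). In adult DN3 it was -3.93, 0.23 and 0.27, so that replicate 1 alone was within the range of adult ETP, and the difference from adult ETP was not called (2.44 ± 0.91 log2, adjusted p = 0.11). The other probe sets of *Kif2c* differed by -0.026, -0.056 and -0.10 log2 between adult and fetal ETP, and the mean of all 4 was -0.84 log2 (adjusted p = 0.0564). *Kif20a*, of the central spindle, was -1.75, -1.99 and -1.22 in adult ETP, against 0.063, 0.079 and 0.42 in fetal ETP (-1.84 ± 0.31 log2, adjusted p = 0.00215), and -0.42, 0.11 and 0.39 in adult DN2 (1.68 ± 0.31 log2 above adult ETP, adjusted p = 0.00492). *Kif22*, the chromokinesin that moves chromosome arms, was -1.48, -3.41 and -2.14 in adult ETP and -0.41, -0.11 and -0.43 in fetal ETP, which was not called on this probe set (-2.03 ± 0.63 log2, adjusted p = 0.0584) but was on another (-1.55 log2, adjusted p = 0.0355). It was 0.46, 0.54 and -0.86 in adult DN2 (2.39 ± 0.63 log2 above adult ETP, adjusted p = 0.0363).

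*Kif23*, of the central spindle, depended on the probe set. On the one taken it was -0.22, -2.35 and -2.34 in adult ETP, against 0.41, -0.072 and 0.31 in fetal ETP (-1.85 ± 0.46 log2, adjusted p = 0.021), where replicate 1 of adult ETP was close to fetal ETP. Another probe set was called in the opposite direction (0.94 log2, adjusted p = 0.0106), and the mean of its 3 probe sets was not called (-0.33 log2, adjusted p = 0.187). In adult DN3 it was -0.29, 0.70 and 0.32, above adult ETP on the probe set taken (1.88 ± 0.46 log2, adjusted p = 0.0156) and below it on the other (-0.90 log2, adjusted p = 0.0112). *Kif11*, the motor that separates the spindle poles, was -1.41, 0.44 and 1.33 in adult ETP on the probe set taken, which had a wide spread and was not called. Its 2 other probe sets were higher in adult DN2 than in adult ETP by 1.66 (adjusted p = 0.0124) and 1.8 log2 (adjusted p = 0.00899). *Kif4*, a chromokinesin, was called only in adult DN2 against adult ETP (0.90 ± 0.24 log2, adjusted p = 0.0385), and this call was lost when each array was centred on its median (adjusted p = 0.0505).

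Among the spindle assembly genes, *Prc1*, which bundles the microtubules of the central spindle, was -1.20, -2.44 and -2.51 in adult ETP, against 0.18, -0.14 and -0.58 in fetal ETP (-1.87 ± 0.47 log2, adjusted p = 0.0206). It was 1.08, -0.46 and -0.039 in adult DN2 (2.24 ± 0.47 log2 above adult ETP, adjusted p = 0.00917) and -0.50, 0.32 and 0.84 in adult DN3 (2.27 ± 0.47 log2, adjusted p = 0.00515). *Tpx2*, the activator of aurora A, was -0.49, -2.35 and -1.56 in adult ETP, against 0.56, 0.20 and -0.033 in fetal ETP (-1.71 ± 0.47 log2, adjusted p = 0.0347), with adult replicate 1 the nearest to the fetal arrays. Its other probe set was the one called in adult DN2 against ETP (1.40 log2, adjusted p = 0.00415). *Hmmr*, a spindle protein, was -1.72, -2.24 and -0.56 in adult ETP, 0.77, 0.46 and -0.51 in fetal ETP and 1.05, -0.52 and 1.5 in adult DN2, and the step from ETP to DN2 was called (2.19 ± 0.58 log2, adjusted p = 0.0349). *Nusap1*, which binds spindle microtubules, was 0.051, 0.33 and 1.11 in adult DN3, against -0.61, -1.53 and -0.95 in adult ETP (1.53 ± 0.46 log2, adjusted p = 0.0453).

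The cytokinesis genes gave no call. *Racgap1* was -1.09, -4.57 and -1.0 in adult ETP, against -0.21, -0.13 and -0.60 in fetal ETP, with adult replicate 2 far below the others and a difference of -1.91 ± 0.71 log2 (adjusted p = 0.101). *Anln*, the actin-binding anillin, was -0.68, -0.98 and -0.95 in adult ETP, against -0.019, -0.14 and -0.22 in fetal ETP, without overlap but also without a call (-0.74 ± 0.34 log2, adjusted p = 0.147). *Ect2*, the exchange factor that opens cytokinesis, differed by -0.21 ± 0.33 log2 in the same comparison.

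Of the 6 genes of chromosome structure only *Ncaph* was called on the probe sets taken. *Mki67*, the Ki-67 protein of dividing cells, was 0.030, -0.091 and -0.30 in adult ETP, against 0.0094, -0.49 and -0.40 in fetal ETP (0.17 ± 0.31 log2, adjusted p = 0.689). It was 1.08, -0.0094 and 0.68 in adult DN2 and 0.68, 0.24 and 0.67 in adult DN3, against 0.32, -0.87 and -0.68 in fetal DN2 and 0.28, -0.010 and -0.31 in fetal DN3, and was called in no comparison of the fit without a block. *Top2a*, topoisomerase II alpha, was -0.18, -0.50 and -0.31 in adult ETP, against -0.053, -0.21 and -0.22 in fetal ETP, and 0.66, 0.049 and 0.097 in adult DN2, against 0.23, -0.30 and 0.047 in fetal DN2. Its difference between adult DN2 and ETP was 0.60 ± 0.20 log2 (adjusted p = 0.0995), without overlap of the arrays, and its whole range over 18 arrays was -0.50 to 0.66. *Ncaph*, a subunit of condensin I, was 0.72, 0.63 and 0.40 in adult DN2, against -0.50, -1.45 and -0.37 in adult ETP (1.36 ± 0.30 log2, adjusted p = 0.0135). In adult DN3 it was -0.27, 0.15 and 0.73 (0.98 ± 0.30 log2 above adult ETP, adjusted p = 0.0485). *Smc2* and *Smc4* of both condensins and *Ncapd2* of condensin I differed by -0.46 ± 0.31, 0.068 ± 0.42 and -0.76 ± 0.36 log2 between adult and fetal ETP and were not called on the probe sets taken, while another probe set of *Smc4* was called in adult DN2 against ETP (0.96 log2, adjusted p = 0.0471) and in adult DN3 against ETP (1.6 log2, adjusted p = 0.00131).

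**Figure D3:**
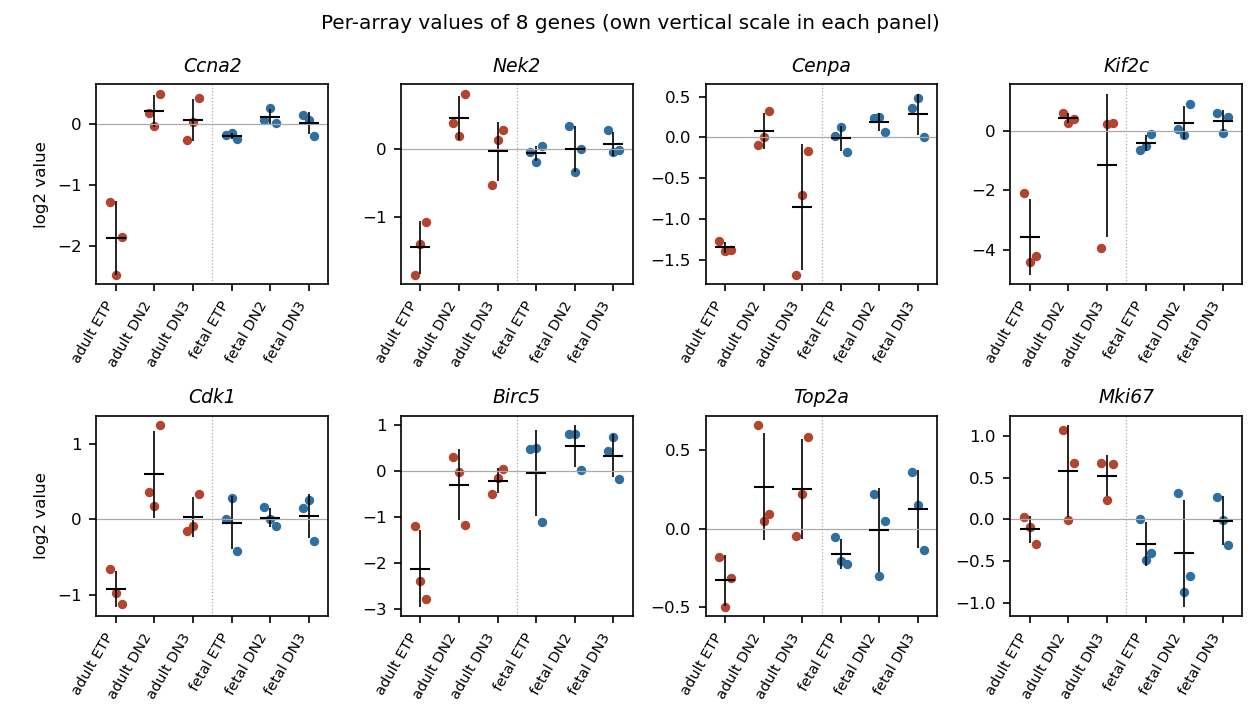
Log2 values of 8 genes in the arrays (points, 3 per group) with the group mean ± SD (bars), adult groups in red and left of fetal groups in blue, each panel with its own vertical scale. *Ccna2*, *Nek2* and *Cenpa* are low in all 3 adult ETP arrays, *Kif2c* and *Cenpa* also in adult DN3 replicate 1, and *Top2a* and *Mki67* vary within a narrower range.

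The next comparison was that of adult with fetal DN2. Of the 41 genes, 0 were called in the fit with equal array weights, while 4.06% of all genes were, and the median difference was 0.10 log2 with 25 positive. At an unadjusted p under 0.05, *Mki67* and *Smc4* were higher and *Bub1* and *Pttg1* lower, 4 of the 41, while 15% of all genes passed. With the replicate number as a block, by which adult and fetal DN2 are paired, *Mki67* was called higher in adult DN2 (adjusted p = 0.021). *Mki67* was also called without fetal DN2 replicate 1 (1.36 log2, adjusted p = 0.0184) and, with *Pttg1* lower (-1.15 log2, adjusted p = 0.0183), without adult DN2 replicate 2 (1.29 log2, adjusted p = 0.0354). With array weights, *Smc4* was called higher (1.53 log2, adjusted p = 0.02). These genes are named after their values were seen. The differences ranged from -0.86 log2 for *Bub1* (-0.86 ± 0.34) to 1.17 log2 for *Kif11* (1.17 ± 0.62), and *Mki67* differed by 0.99 ± 0.31 log2 (adjusted p = 0.114). This does not show that adult and fetal DN2 cells held the same amounts. At DN3 the median difference was -0.18, with 29 of 41 negative, and it turned positive without adult DN3 replicate 1 (0.13, with 16 negative) and with array weights (0.11, with 18 negative). It was -0.075 without fetal DN3 replicate 1. Without adult DN3 replicates 2 and 3 it was -0.79, with 38 negative, and 4 genes were called lower (*Aurkb*, *Cenpa*, *Kif22* and *Kif2c*), which rests on adult DN3 replicate 1 alone. Without fetal replicates 2 and 3, 0 genes were called at either stage, and the medians were -0.058 at DN2 and -0.47 at DN3.

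**Figure D4:**
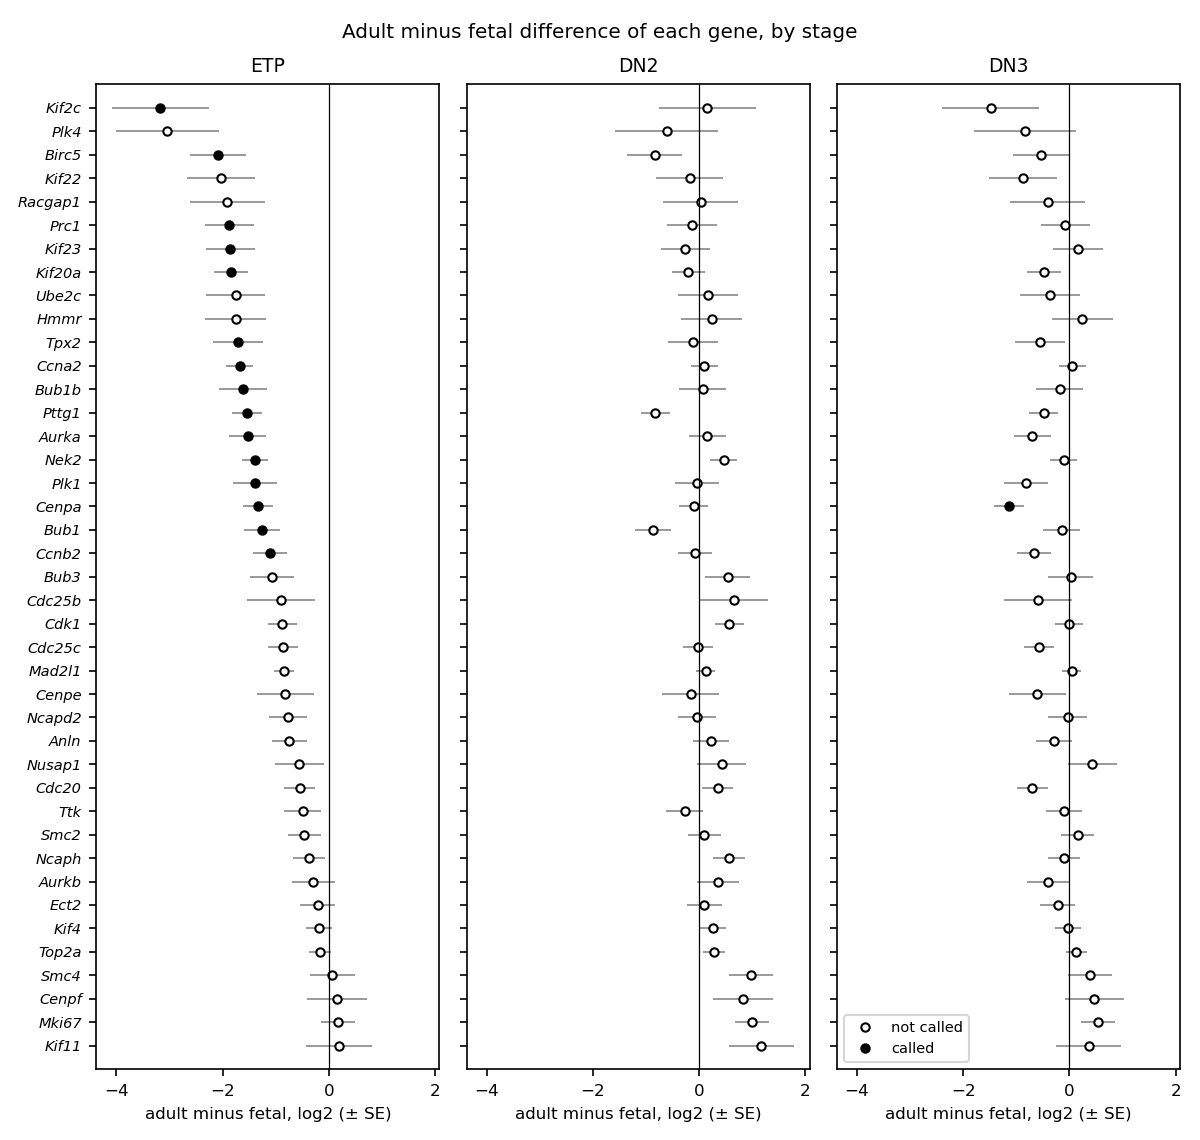
Adult minus fetal difference in log2 of each of the 41 mitotic genes (points, ± SE of the fit over 18 arrays) at ETP, DN2 and DN3, ordered by the difference at ETP. Filled points were called. The points lie left of 0 at ETP for 37 genes and around 0 at DN2.

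From DN2 to DN3 in adult cells 0 of 41 genes were called, while 1.09% of all genes were, and the median difference was -0.41 log2 with 36 negative. At an unadjusted p under 0.05, 4 genes were lower (*Ccnb2*, *Cdc25c*, *Cdc20* and *Cenpa*), while 11.5% of all genes passed. The most negative were *Kif2c* (-1.58 ± 0.91), *Plk4* (-1.24 ± 0.96) and *Kif11* (-1.20 ± 0.62). Without adult DN3 replicate 1 the median was -0.13, and without replicate 3 it was -0.64 and *Cenpa* was called lower (-1.27 log2, adjusted p = 0.0112). Without both replicates 2 and 3 it was -0.93, and 5 genes were called lower (*Mad2l1*, *Plk4*, *Aurkb*, *Cenpa* and *Kif2c*). With the replicate block, by which adult DN2 and DN3 are paired, *Cdc25c* was called lower (-1.02 log2, adjusted p = 0.0161). These genes are named after their values were seen.

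In fetal cells the 3 steps were compared by the same fit over 18 arrays. This fit did not pair the same-numbered fetal arrays, whose deviations from the group means correlated at 0.312 to 0.597. From ETP to DN2, 0 of 41 genes were called, while 1.23% of all genes were, and the median was 0.17 log2 with 33 positive. Only *Cdc25b* passed an unadjusted p under 0.05 at that step, while 5.83% of all genes did. From DN2 to DN3, 0 were called, while 2.96% of all genes were, and the median was -0.031. From ETP to DN3, 0 were called, while 6.38% of all genes were, and the median was 0.25 with 27 positive. At an unadjusted p under 0.05, 2 genes were lower from DN2 to DN3, while 10.2% of all genes passed, and 4 were higher and 2 lower from ETP to DN3, while 17.2% passed. Fits to the 6 fetal arrays of a comparison alone called 0, 0 and 1 gene, the last being *Plk1* from ETP to DN3 (adjusted p = 0.0314). With array weights, *Bub1* was called lower from DN2 to DN3 (-1.05 log2, adjusted p = 0.00249), and from ETP to DN3 *Cdc25b*, *Ube2c* and *Plk1* were called higher and *Bub1* and *Plk4* lower. The widest rises were those of *Cdc25b* (1.97 ± 0.64 log2, adjusted p = 0.106) and *Plk1* (1.11 ± 0.41 log2, adjusted p = 0.177) from ETP to DN3, and the widest falls those of *Plk4* (-1.14 ± 0.96) and *Bub1* (-1.0 ± 0.34 log2, adjusted p = 0.128).

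Whether the difference between adult and fetal cells changed from one stage to the next was tested as an interaction. Between ETP and DN2 all 41 changes were positive, with a median of 1.02 log2 against 0.037 for all genes, and 2 genes were called, while 0.363% of all genes were called higher. They were *Nek2* (1.85 ± 0.35 log2, adjusted p = 0.0258) and *Ccna2* (1.78 ± 0.36 log2, adjusted p = 0.0343). Between ETP and DN3, *Ccna2* was called (1.73 ± 0.36 log2, adjusted p = 0.0196), while 1.32% of all genes were called higher, and the median was 0.83 with 38 positive. Between DN2 and DN3, 0 were called, while 0.71% of all genes were, and 2 genes, *Cdc20* and *Cenpa*, were lower at an unadjusted p under 0.05, while 6.65% of all genes passed. Without adult DN3 replicates 2 and 3, 0 were called between ETP and DN3, where *Ccna2* changed by 1.4 log2 (adjusted p = 0.125), and 2 between DN2 and DN3 (*Cenpa* and *Kif2c*, both lower). With the replicate block, the change of *Ccna2* between ETP and DN2 was no longer called (adjusted p = 0.0578). Neither *Nek2* nor *Ccna2* kept its call in every fit that left out 1 array, and the other probe set of *Ccna2* was not called (1.24 ± 0.34 log2 between ETP and DN2, adjusted p = 0.172).

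Other genes of division were examined in the same comparisons, taken from lists that were chosen with earlier results of these data known. Of all 12393 genes, 6.16% were called lower in adult than in fetal ETP and 3.86% higher in adult DN2 than in adult ETP. A further 77 measured genes lay outside the 42. They were regulators of the cell cycle and genes of the spindle, kinetochore, passenger complex, cytokinesis, condensin, cohesin and anaphase-promoting complex. Of the 77, 13 were lower and 1 higher in adult than in fetal ETP, with a median of -0.52 log2. Among the lower genes were *Zwint* (-2.37 ± 0.40 log2, adjusted p = 0.00188) and *Ska1* (-2.10 ± 0.62 log2, adjusted p = 0.0465) of the kinetochore and *Cks1b*, a partner of the cyclin-dependent kinases (-1.86 ± 0.32 log2, adjusted p = 0.00236). The 1 higher gene was *Cit*, citron kinase of cytokinesis (1.06 ± 0.31 log2, adjusted p = 0.0449). In adult DN2 against ETP 17 were higher and 0 lower (median 0.82), the widest being the kinesin *Kifc1* (3.88 ± 0.77 log2, adjusted p = 0.00665) and *Mybl2*, a transcription factor of the cell cycle (2.15 ± 0.54 log2, adjusted p = 0.0286). Of 47 measured genes of DNA replication, 10 were lower and 0 higher in adult than in fetal ETP (median -0.69), and 17 higher and 0 lower in adult DN2 than in adult ETP (median 0.81). *Uhrf1*, which keeps DNA methylation through replication, differed by -2.77 ± 0.58 log2 (adjusted p = 0.00782) between adult and fetal ETP. *Ccne1*, cyclin E1, differed by -2.46 ± 0.39 log2 (adjusted p = 0.00122) there, and *Rrm1*, of ribonucleotide reductase, by -2.34 ± 0.41 log2 (adjusted p = 0.00239). In adult DN2 against ETP, *Rrm1* differed by 2.42 ± 0.41 log2 (adjusted p = 0.00228), *Rpa2*, which covers single-stranded DNA, by 2.36 ± 0.50 log2 (adjusted p = 0.011) and *Uhrf1* by 2.35 ± 0.58 log2 (adjusted p = 0.0251).

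**Figure D5:**
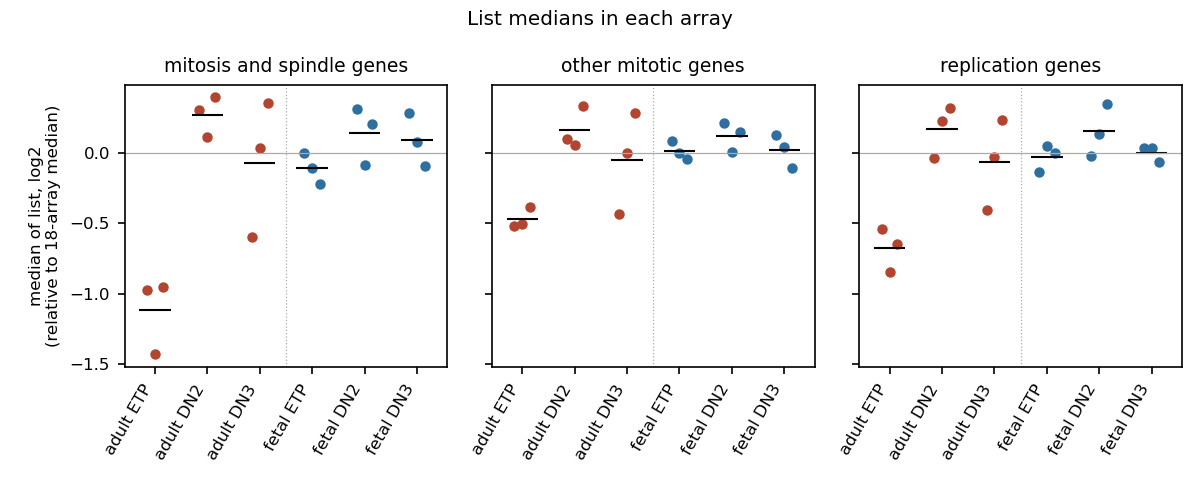
Median of the 41 mitotic genes, of 77 other mitotic genes and of 47 replication genes in each array (points, log2 relative to the median of 18 arrays), with the mean of the 3 arrays of a group (bars), adult groups in red and left of fetal groups in blue. The mean of adult ETP is the lowest for all 3 lists, and adult DN3 replicate 1 is the lowest array of the other groups.

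Some markers of other cells also differed between adult and fetal ETP, where 503 of all 12393 genes were called higher and 764 lower. Of 16 measured myeloid genes 5 were higher and 0 lower in adult than in fetal ETP. In this list 11 differences were positive, with a median of 0.74 log2. The list means were 2.99, 2.45 and 3.81 in adult ETP, against 1.40, 1.67 and 1.44 in fetal ETP. *Ctsg*, a granule protease, was 6.95, 6.16 and 8.74 in adult ETP, against -0.21, 0.46 and 0.21 in fetal ETP, and *Csf1r*, the receptor of macrophage colony-stimulating factor, was 9.70, 9.46 and 9.50, against 7.50, 7.39 and 8.89. *Fcgr3*, an Fc receptor gene, went the other way without a call (-1.47 ± 0.57 log2, adjusted p = 0.113). *Itgam*, *S100a9* and *Cebpa* differed by -0.087, -0.099 and -0.025 log2 and were not called. Of 11 dendritic and MHC class II genes 5 were higher and 0 lower, and 7 differences were positive, with a median of 1.21 log2. The list means were 3.00, 3.51 and 3.06 in adult ETP, against 0.69, 0.62 and 0.69 in fetal ETP. *H2-Aa* was 6.58, 8.51 and 7.51, against 0.010, -0.11 and 0.024. *Itgax* went the other way without a call, at 1.64, 2.37 and 3.06, against 3.61, 3.46 and 2.85. *Ciita*, *Batf3* and *Xcr1* lay at -0.051 to 0.053 in ETP of both ages. Of 11 genes of NK and innate lymphoid cells 2 were lower, *Gzma* and *Gzmb*, while the median difference of the list was -0.082 log2. The list means were -0.65, -0.34 and -0.094 in adult ETP, against 1.19, 1.14 and 0.94 in fetal ETP. *Gzma* was -11.29, -7.51 and -7.81 in adult ETP, against 0.11, 0.45 and 0.27 in fetal ETP. *Gzmb* was -2.29, -1.85 and 0.31, against 4.19, 4.95 and 4.33. *Ncr1*, *Klrk1* and *Tbx21* lay at -0.063 to 0.068 in ETP of both ages, and *Nkg7* had the 1 positive difference (0.51 log2). Of 15 erythroid genes 3 were lower, with means of 0.27 to 0.29 in adult ETP, against 0.37, 0.80 and 1.45 in the replicates of fetal ETP. Of 11 B cell genes 1 was higher, *Ighm* of the immunoglobulin heavy chain (4.37 ± 0.23 log2, adjusted p = 5e-08), while *Pax5* and *Cd79a* lay at -0.068 to 0.066 and -0.059 to 0.052 in ETP of both ages. Of 13 stromal genes 1 was lower and 0 higher in adult ETP, and *Foxn1* of thymic epithelium lay at -0.052 to 0.039. Genes of later stages also differed. Of 9 genes that rise towards DN2 and DN3, 5 were lower and 0 higher in adult than in fetal ETP, with a median of -2.1 log2. They were the T cell receptor subunit *Cd3g* (-7.37 ± 0.77 log2, adjusted p = 5.18e-05), the transcription factor *Bcl11b* (-3.75 ± 0.49 log2, adjusted p = 0.000323), the recombinase genes *Rag1* (-3.72 ± 0.43 log2, adjusted p = 0.000117) and *Rag2* (-2.04 ± 0.32 log2, adjusted p = 0.00109) and *Thy1* (-2.95 ± 0.68 log2, adjusted p = 0.0135). Of 4 genes of the ETP stage 1 was higher, the cytokine receptor gene *Flt3* (3.84 ± 0.56 log2, adjusted p = 0.000694). In adult DN2 against adult ETP, 6 myeloid and 6 dendritic and MHC class II genes were lower and 0 higher. Of all 12393 genes, 447 were called lower there. The part of these cells and stages in the mitotic differences was not tested.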

How the data were processed

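RNA of 18 sorted samples was amplified in 2 cycles and hybridized to Affymetrix Mouse Genome 430A 2.0 arrays. The deposited values are log2 expression made by the authors with GCRMA in GeneSpring GX (versions not given in the sources used here), with each probe set centred on its median over the 18 arrays. They hold no absolute level, so no dim probe set could be left out, and GCRMA compresses low signals. For arrays, their number limits the precision.

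The deposited log2 values were fitted without further scaling with limma 3.58.1 in R 4.3.3, with 1 mean for each of the 6 groups over all 18 arrays, empirical Bayes moderation without a trend, and Benjamini-Hochberg adjustment over 22626 probe sets. The adjusted p is from this fit throughout. A call needed an adjusted p under 0.05 and 1.8-fold. GEO's platform annotation gave 1 gene to 20380 probe sets, several to 691 and none to 1555. A gene was represented by 1 probe set, first one not marked as shared between transcripts, then the one of largest SD over the arrays. This rule favours probe sets that vary, and all 12393 genes followed it. Change between stages of the adult minus fetal difference was tested as an interaction, and change over the 6 groups by the moderated F test. The fit was tested on simulated data.

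The mitotic genes, the other lists and the classes were chosen with earlier results of these data known. Named with array values were *Mki67*, *Top2a* and *Cdk1* and up to 3 called genes per class and comparison, and of the other lists up to 3 called genes per comparison. Genes whose probe sets were called differently are also named. Further genes are named by range or difference to account for all members, and the examples among markers of other cells were chosen after their values were seen.

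Replicate numbers come from the labels. Deviations from group means correlated above 0.1 in all 3 same-numbered pairs between adult DN2 and DN3 (0.119 to 0.424), between adult DN2 and each fetal group (0.125 to 0.374) and between fetal groups (0.312 to 0.597), but not in pairs with adult ETP or of adult DN3 with fetal groups. Alternatives were centring of arrays, a replicate block, averaging a gene's probe sets, the 2 groups alone, no fold limit, a plain one-way test and each array left out. Array weights and fits without fetal replicates 2 and 3, or without adult DN3 replicates 2 and 3, were chosen after seeing the data.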

Additional observations from a re-analysis of the deposited data

Results flagged for a closer look

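In 3 cases the adult minus fetal difference of a gene changed between stages by a test of the interaction in limma over all 18 arrays. *Ccna2* was lower in adult than in fetal ETP and level between the ages at DN2, a change of 1.78 log2 between ETP and DN2 (adjusted p = 0.0343). The adjusted p was 0.0578 with the replicate block, and the call was lost without adult ETP replicate 3, without adult DN2 replicates 1 or 3, and without any single array of fetal ETP or fetal DN2, with values of 1.47 to 2.08 log2 over all fits that left out 1 array.

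*Nek2* changed by 1.85 log2 between ETP and DN2 (adjusted p = 0.0258). This call was lost without adult DN2 replicates 1 or 3, without any single array of fetal ETP, and without fetal DN2 replicates 2 or 3, with values of 1.65 to 2.04 log2. *Ccna2* also changed by 1.73 log2 between ETP and DN3 (adjusted p = 0.0196), and this call was lost without fetal ETP replicate 1 or 2 and without fetal DN3 replicate 3, with values of 1.42 to 2.03 log2. Both genes lay lower in all 3 adult ETP arrays than in all 15 others.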

How the results depend on the processing

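No called gene turned its direction under these alternatives, while the median difference between adult and fetal DN3 (-0.18) turned positive with array weights (0.11) and without adult DN3 replicate 1 (0.13). With gene-by-gene array weights (0.142 to 8.87, chosen after seeing the data), the calls were 23 for adult against fetal ETP, 1 for DN2, 13 for adult DN2 against ETP, 1 for fetal DN3 against DN2, 5 for fetal DN3 against ETP, and 4 and 9 for the changes from ETP to DN2 and to DN3. With the 2 groups alone they were 4 for adult against fetal ETP, 0 for DN3, 3 for adult DN2 against ETP, 0 for adult DN3 against ETP and 1 for fetal DN3 against ETP. Without fetal replicates 2 and 3, 0 were called at ETP and 0 at DN3. Without adult DN3 replicates 2 and 3 (chosen after seeing the data), the calls were 4 for adult against fetal DN3, 5 for adult DN3 against DN2, 1 for adult DN3 against ETP, 2 for the change between DN2 and DN3 and 0 for that between ETP and DN3. With the replicate block, the calls were 1 for adult against fetal DN2, 0 for DN3, 1 for adult DN3 against DN2 and 1 for the change from ETP to DN2. The block otherwise ended the calls of *Ccnb2* and *Kif2c* between adult and fetal ETP, of *Ccnb2* and *Kif22* in adult DN2 and of *Ncaph* in adult DN3 against ETP, where same-numbered arrays were not shown to be paired. Without 1 array, the calls ranged from 7 to 17 for adult against fetal ETP, 0 to 2 for DN2, 0 to 1 for DN3, 13 to 21 for adult DN2 against ETP, 0 to 1 for adult DN3 against DN2, 4 to 18 for adult DN3 against ETP, 0 to 4 for the changes from ETP to DN2 and to DN3, and 9 to 24 over the 6 groups. They were 0 for each fetal step and the change between DN2 and DN3. Of 55 single calls, 18 held without any single array of their groups, 50 with each array centred on its median and 48 with the mean of all probe sets. The share of all genes called was counted only in the main fit. A change in these counts therefore cannot be read as particular to the mitotic genes. The cause of these changes was not tested, except that the 2 groups alone and the left-out arrays leave fewer arrays. The planned filter on dim probe sets was not run, since the deposited values hold no level.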
